A study of Mus musculus with 11 samples.

Results

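A set of 11200 genomic regions had an ATAC-seq peak in all 3 libraries of dopaminergic (DA) neurons and in exactly 1 of the 2 libraries of serotonergic (5-HT) neurons from mouse embryos. They were 8.49% of the 131942 regions listed for the 5 libraries. Of the 45672 regions with a peak in all 3 DA libraries, here called the DA repertoire, they made up 24.5% (95% Wilson interval 24.1 to 24.9). The rest of the repertoire comprised 17616 regions without a peak in either 5-HT library and 16856 regions with a peak in all 5 libraries. The study counts slightly fewer regions in the set and in the repertoire. Its numbers without a 5-HT peak and with a peak in all 5 libraries are the same as here. The shortfall in the repertoire therefore lies within the set, and why was not tested. The regions were chosen by the presence of a peak in each of the 5 libraries, so presence and scores are given as a description. No p-values are given, because regions are not replicates and no library lay outside the rule.

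DA neurons were sorted by flow cytometry from the ventral mesencephalon of E14.5 embryos of TH-GFP mice, which carry GFP under the Th promoter and are kept on a C57BL/6J background. Hindbrain cells, taken from the region that spans rhombomeres r1, r2 and r3, were sorted at the same age from Mash1-CRE x ROSA YFP embryos, whose strain background the sources used here do not give. The dams were Swiss wild-type mice for both lines, the transgene coming from the sire, and tissue of several embryos was pooled for each experiment. Each sort rests on a single driver: Mash1 is a proneural factor of several neuronal lineages, and the Th promoter can be active outside DA neurons, so neither population is pure by construction. The study also reports that the sorted hindbrain cells expressed genes of DA and GABAergic neurons. For the DA sort it reports high expression of GABAergic markers, and proposes a slight contamination by GABAergic neurons.

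ATAC-seq marks open chromatin through a transposase that inserts adapters where DNA is accessible, which includes active promoters, enhancers and sites bound by CTCF, the factor that organises chromatin loops. Promoters of broadly used genes tend to be open in many cell types, whereas distal enhancers differ more between them. DA and 5-HT neurons both handle monoamines and share the enzyme Ddc and the vesicular transporter Slc18a2, but arise on opposite sides of the boundary between midbrain and hindbrain.

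Promoters of marker genes were examined first, a promoter being 1 kb upstream to 100 bp downstream of an annotated transcription start site (TSS). All 7 dopaminergic markers had a promoter peak in every DA library, and 3 of the 7, Ddc, Nr4a2 and Pitx3, had one in both 5-HT libraries. Slc6a3 had one in 5-HT replicate 1 only and Slc18a2 in 5-HT replicate 2 only. Of 6 serotonergic markers, 4, 5 and 4 had a promoter peak in DA replicates 1, 2 and 3, against 5 in 5-HT replicate 1 and 2 in 5-HT replicate 2. The promoter of Fev, the transcription factor typical of 5-HT neurons, had a peak in 5-HT replicate 1 alone, with a score of 3.88. The promoter of the serotonin transporter gene Slc6a4 went against the labels: its scores were 4.80, 6.56 and 3.76 for DA replicates 1, 2 and 3, and neither 5-HT library had a peak there. Tph2 had a promoter peak in every library. Its scores were 9.91, 7.59 and 11.1 in DA replicates 1, 2 and 3, with 7.09 and 3.59 in 5-HT replicates 1 and 2. These 6 markers did not set the 5-HT libraries apart, and why was not tested. Of the 6, Lmx1b is also needed by DA neurons, and Gata2 is also a GABAergic gene. The study itself reports Tph2 protein in nearly all YFP-positive cells, Th protein in most GFP-positive cells, and RNA profiles that separated both populations, which were not examined here. All 3 GABAergic markers had a promoter peak in each DA library and in 5-HT replicate 1, and 2 of them in 5-HT replicate 2. The glutamatergic marker Slc17a6, the astrocyte marker Gfap and the oligodendrocyte marker Mbp each had one in every library but 5-HT replicate 2. The astrocyte marker Aqp4 had one in DA replicates 2 and 3, while Dbh, Sox10, Cdh5, Pecam1 and Csf1r had none in any library. An open promoter is not a measure of expression, and whether other cells contributed to these peaks was not tested.

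The 2 5-HT libraries held very unequal parts of the set. Of the 11200 regions, 9861 had their 5-HT peak in replicate 1 (88.0%, 87.4 to 88.6) and 1339 in replicate 2 (12.0%, 11.4 to 12.6). Replicate 1 had 38772 peaks in all and replicate 2 had 22879, so replicate 1 held 62.9% of the peaks of both. The set took up 25.4% of the peaks of replicate 1 and 5.85% of those of replicate 2. Among DA regions with a peak in replicate 1, 36.9% lacked one in replicate 2, whereas among those with a peak in replicate 2 only 7.36% lacked one in replicate 1. The smaller list was thus nearly contained in the larger one within the DA repertoire. The number of reads behind each library is unknown, since the peak lists hold no counts, so its part in this split was not tested. The study reports fewer sorted cells for each hindbrain ATAC-seq experiment than for any DA experiment, and unequal numbers between the hindbrain sorts. Whether cell number had a part in this split was not tested either. The Wilson intervals cover counting error only.

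Limiting 5-HT replicate 1 to its 22879 highest-scoring peaks, as many as replicate 2 has, gave 8553 regions, of which 58.0% (57.0 to 59.0) were held by replicate 1. Of these 8553 regions, 6300 belonged to the original set, and the others came from regions with a peak in all 5 libraries. With every library limited to its 22879 highest-scoring peaks, 2923 regions met the rule and 71.5% were held by replicate 1. Limiting replicate 1 alone can only lower its share, since regions in all 5 libraries that lose its peak then count as held by replicate 2.

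Position along the genome was close to even. Over chromosomes 1 to 19 and X, the set made up between 22.5% (X) and 27.1% (chromosome 2) of the DA repertoire, and 5-HT replicate 1 held between 84.4% (chromosome 17) and 91.2% (chromosome 9) of it. On the Y chromosome 7 of 21 DA regions belonged to the set. The regions were scattered: the median gap to the nearest other region of the set was 47.2 kb, and 2.76% lay within 1 kb of another. A region with a peak in all 5 libraries lay within 1 kb of 3.51% of them, so few lay beside a region shared by every library.

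By the position of their centre, 1648 of the regions were in promoters (14.7%, 14.1 to 15.4), 828 in exons (7.39%), 4108 in introns (36.7%) and 4616 between genes (41.2%). With promoters drawn wider, reaching 2 kb before and 500 bp past the TSS, their share was 23.1%. This composition lay between that of the other DA regions. Promoters accounted for 3.99% of DA regions without a 5-HT peak and for 43.7% of those with a peak in all 5 libraries. Regions held by 5-HT replicate 1 were in promoters more often (15.3%, 14.6 to 16.0) than those held by replicate 2 (10.8%, 9.21 to 12.5). Intergenic regions of the set lay a median of 44.7 kb from the closest protein-coding TSS, against 67.1 kb for DA regions without a 5-HT peak and 37.1 kb for those in all 5 libraries. Most promoter regions of the set, 89.5%, overlapped the promoter of a protein-coding gene, and a further 7.40% overlapped that of an annotated non-coding transcript and of no protein-coding gene.

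Widths ranged from 116 to 15469 bp, with a median of 671.5 bp and quartiles of 442 and 1011 bp. Regions held by 5-HT replicate 1 had a median width of 692 bp, and those held by replicate 2 a median of 523 bp. The latter equalled the median of DA regions without a 5-HT peak, also 523 bp, while regions in all 5 libraries had a median of 1091 bp. Promoter regions of the set were wider, at 877 bp, than intergenic ones, at 594 bp. A share of 5.54% were at most 250 bp wide and 25.7% were wider than 1000 bp. The widest regions were chr2:77763047-77778515, 15469 bp and centred on an exon of Cwc22, a splicing factor gene, and chr2:77735006-77746259, 11254 bp and in an intron of the same gene. Next in width was chr1:85240788-85250285, 9498 bp and in an intron where the models C130026I21Rik and Gm16028 overlap. All 3 were held by 5-HT replicate 1 with scores of 3.59, 3.37 and 3.74, and none of them had a DA score above 5.36. Whether these wide regions have copies elsewhere in the genome was not examined, so their widths may not describe single loci.

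The scale of the deposited score is not named, so scores were compared as percentiles among the peaks of the same library. Members of the set had median percentiles of 52.3, 70.0 and 71.4 in DA replicates 1, 2 and 3, a mean of 64.6 ± 10.7 (SD, n = 3 libraries). The corresponding means were 52.9 ± 12.7 for DA regions without a 5-HT peak and 84.7 ± 5.64 for regions in all 5 libraries. These SDs include differences between the peak lists of the libraries. Within DA replicates 1, 2 and 3 the medians were 38.4, 58.5 and 61.9 without a 5-HT peak. For regions in all 5 libraries they were 78.2, 88.0 and 87.9, so the set lay between in each DA library. In the 5-HT library that held them the median percentile was 41.2 for replicate 1 and 31.5 for replicate 2. The peak lists differ in length, from 22879 to 94351 peaks, and DA replicate 1, with the shortest DA list, had the lowest DA median, so percentiles of different libraries are not on a common scale. The lowest 25% of the scores of the holding library took in 28.4% of the regions held by replicate 1 and 41.1% of those held by replicate 2. Regions in all 5 libraries had medians of 73.2 and 60.1 in the same libraries. Within the set, the score in DA replicates 1, 2 and 3 and that in 5-HT replicate 1 had Spearman correlations of 0.46, 0.48 and 0.47 over the 9861 regions held there, and that in 5-HT replicate 2 had 0.32, 0.36 and 0.32 over the 1339 held there, given as a description.

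Ranking the DA repertoire by the lowest of its 3 DA percentiles and dividing it into 10 equal parts showed where the set lay. The set made up 21.2% of the lowest part, 30.7% of the fifth and 5.65% of the highest. In the highest part 92.3% of the regions had a peak in all 5 libraries. The share held by 5-HT replicate 1 varied little, between 84.1% in the highest part and 89.4% in the fourth. Median width of the set fell from 825 bp in the third part to 411.5 bp in the highest, whereas that of regions in all 5 libraries was 989 bp and 1150 bp in the same parts. DA regions without a 5-HT peak also narrowed between these parts, from 546 to 428 bp. Within the set, the highest part therefore had the smallest median width of the 10 parts.

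Absence from the other 5-HT library varied with the score in the holding library. When the peaks of 5-HT replicate 1 were divided into 10 equal parts by score, 84.1% of the DA regions in the lowest part lacked a peak in replicate 2, and 9.60% of those in the highest part did. For 5-HT replicate 2 the same share fell from 18.2% to 0.615%. At the threshold itself, the lowest scores inside the set were 3.37 in 5-HT replicate 1, 2.83 in 5-HT replicate 2, and 3.45, 3.05 and 3.03 in DA replicates 1, 2 and 3. Just outside it, 3716 regions had a peak in 1 5-HT library and in 2 of the 3 DA libraries, and 3145 of them lacked only the peak of DA replicate 1.

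Among 22367 protein-coding genes, 2304 (10.3%) had a region of the set overlapping a promoter by at least 1 bp, and 531 did when every library was limited to 22879 peaks. For 1892 of them (8.46% of all) no promoter of the gene had a peak in all 5 libraries. In the body of 4018 genes (18%) at least 1 region of the set was centred. Genes with such a region had a median length of 55.1 kb and those without it 12.0 kb. The lists below are read beside these shares, whose base includes genes without a promoter peak in any library. A gene counts if any of its annotated promoters is overlapped, so genes with more promoters have more chances. Differences between the lists and these shares were not tested. All protein-coding genes had a median length of 15.4 kb, and several lists were longer, among them the dopaminergic (39.9 kb), endothelial (41.6 kb), Sonic hedgehog (69.0 kb) and synaptic (69.0 kb) lists, so body counts cannot be told apart from gene length. Order within a list goes by the lowest raw score over the DA libraries and can change by percentile.

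Of 20 genes of dopaminergic identity, 7 had a region of the set at a promoter and 10 had one in the gene body. The plasma membrane dopamine transporter gene Slc6a3 had a promoter region of 1108 bp, chr13:73673678-73674785, scoring 6.92, 4.80 and 4.46 in the DA libraries, with 3.43 in 5-HT replicate 1. The promoter of Slc18a2, which encodes the vesicular monoamine transporter, was held by the other library: chr19:59334818-59336014 scored 4.71, 6.85 and 4.78 in the DA libraries, with 3.08 in 5-HT replicate 2. Both genes act on dopamine, yet their promoters were split between the 5-HT libraries, each with a 5-HT score in the lower part of its library.

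Regulators of the DA lineage were also represented. Lmx1b, a LIM homeodomain factor needed by both kinds of neuron, had a promoter region of 4196 bp, chr2:33494705-33498900, with DA scores of 6.00, 7.62 and 6.01 and 4.44 in 5-HT replicate 1. A further 4 regions of the set lay in its body, all held by 5-HT replicate 1. Otx2, the homeodomain factor of forebrain and midbrain, had a promoter region, chr14:49287098-49288091, with DA scores of 5.24, 5.62 and 7.54 and 4.53 in 5-HT replicate 1. At Nr4a2, the orphan nuclear receptor required for DA neurons, the region chr2:56963441-56965679 scored 3.96, 4.71 and 4.52 in the DA libraries, with 3.57 in 5-HT replicate 1. Nr4a2, Ddc and Gfra1 each had another promoter region with a peak in all 5 libraries, so for them the set added a further one; the other 4 dopaminergic genes had none. Among genes named below the same held for Pax6, Tcf7l2, Slit3, Syt11, Kcnc1, Grin1 and Dnajc6. Gfra1, a receptor component for GDNF, had a narrow promoter region of 326 bp with DA scores of 4.21, 6.90 and 5.23 and 4.29 in 5-HT replicate 1.

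Ddc, the decarboxylase shared by DA and 5-HT neurons, had 4 regions of the set in its body. The one at a promoter, chr11:11721629-11723129, scored higher in 5-HT replicate 1 (5.67) than in the DA libraries (3.76, 4.48 and 4.00). The one centred on an exon, chr11:11784264-11785712, had the opposite order, with 11.3, 12.5 and 11.3 in the DA libraries, with 4.04 in 5-HT replicate 1. Scores of different libraries may not share a scale, so these orders are a description. The gene of tyrosine hydroxylase, Th, had no promoter region in the set, since its promoter had no 5-HT peak, but held a region of 260 bp in an intron with DA scores of 7.29, 7.66 and 6.23 and 5.72 in 5-HT replicate 1. Lmx1a, whose promoter also lacked 5-HT peaks, had an intronic region held by 5-HT replicate 2, chr1:169645797-169646816, with DA scores of 8.61, 11.6 and 8.51 and a 5-HT score of 3.19.

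Serotonergic identity genes were represented by 4 of 16 at promoters and 4 of 16 in gene bodies, 2 of the promoter genes, Ddc and Lmx1b, being shared with the dopaminergic list. Nkx2-2, a homeodomain factor of the ventral hindbrain, had a region, chr2:147018825-147021191, with low DA scores of 3.51, 3.80 and 3.67 and 5.21 in 5-HT replicate 1. The gene of the serotonin autoreceptor, Htr1a, had a promoter region held by 5-HT replicate 2, chr13:106232631-106233115, with DA scores of 4.57, 6.26 and 5.24 and 3.03 in that library. No noradrenergic gene of 5 had a promoter region of the set, and 1 had a region in its body.

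Of 15 GABAergic genes only Dlx2, a homeodomain factor, had a promoter region, with DA scores of 3.66, 4.16 and 3.50 and 3.45 in 5-HT replicate 1, and 2 genes had a region in the body. Of 10 glutamatergic genes 3 had a promoter region, all held by 5-HT replicate 1. The region at Slc17a6, the vesicular glutamate transporter gene, was the highest in DA rank among the promoters of the transmitter lists: chr7:58876712-58878281, 1570 bp, scored 9.97, 12.9 and 12.8 in the DA libraries, with 3.65 in 5-HT replicate 1. Pou4f1, a POU factor of sensory and midbrain neurons, scored 6.44, 7.51 and 7.83 in the DA libraries, with 4.92 in 5-HT replicate 1. For the bHLH gene Neurod6 these scores were 6.73, 10.7 and 7.18, with 3.77 in 5-HT replicate 1.

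Radial glia and progenitor genes had a promoter region of the set in 2 of 11 cases and a region in the body in 2, with Slc1a3, a glial glutamate transporter gene, at DA scores of 6.72, 4.93 and 6.02, and Pax6 below it. Of 11 astrocyte and oligodendrocyte genes, 2 had a promoter region and 2 a region in the body. Gfap, the intermediate filament gene of astrocytes, had a region of only 219 bp, chr11:102762228-102762446, with DA scores of 6.91, 8.76 and 7.34 and 6.92 in 5-HT replicate 1, and Mbp, the myelin basic protein gene, scored 4.38, 4.96 and 4.80 in the DA libraries, with 3.76 in 5-HT replicate 1. Endothelial and pericyte genes had 3 of 12 at promoters and 6 of 12 in bodies; the claudin gene Cldn5 and the receptor genes Kdr and Flt1 gave the 3 promoter regions, and the highest of their DA scores was 5.22. Microglial and blood genes had none of 10 at either place.

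Midbrain and hindbrain patterning genes had 2 of 18 at promoters and 5 of 18 in bodies, the promoter genes being Otx2 and Pax8. Proneural and Hes genes had 1 of 18 at both places, with Atoh1 as the promoter gene. Sonic hedgehog pathway genes had 1 of 12 at promoters and 8 of 12 in bodies, Gli2 alone holding 4 regions. Wnt pathway genes had 6 of 39 at promoters and 10 of 39 in bodies. The Wnt effector gene Tcf7l2 led that list with DA scores of 7.75, 6.13 and 5.20, ahead of the ligand gene Wnt7a and the receptor gene Fzd6.

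Axon guidance genes, with a median length of 155 kb, had 10 of 44 at promoters and 24 of 44 in bodies. The semaphorin gene Sema3a had the highest lowest DA score of this list, with DA scores of 5.52, 8.59 and 8.06 and 5.49 in 5-HT replicate 1, followed by the plexin gene Plxna1 and the Slit ligand gene Slit3. By lowest DA percentile Plxna1 (56.8) stood above Sema3a (56.5). Synaptic release and adhesion genes had 6 of 39 at promoters and 17 of 39 in bodies. Syn2, a synapsin gene, and Vamp2, a vesicle SNARE gene, had lowest DA scores of 5.87 and 5.25, while Syt11, a synaptotagmin gene, differed between DA libraries, with 14.1, 12.4 and 4.68. Voltage-gated channel genes, of median length 175 kb, had 11 of 38 at promoters and 22 of 38 in bodies, led by the sodium channel genes Scn3a and Scn2a1 and the potassium channel gene Kcnc1. Glutamate and GABA receptor genes, of median length 259 kb, had 10 of 34 at promoters and 21 of 34 in bodies, with Gabbr2 and Grin1 among the highest at promoters. None of these counts was tested against another list.

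Parkinson disease genes had 1 of 15 at promoters and 4 of 15 in bodies. All 15 had a promoter with a peak in all 5 libraries, and the 2 regions of the set at Dnajc6, which encodes an auxilin of clathrin uncoating, marked further promoters of that gene, with lowest DA scores of 5.30 and 4.10. Cytosolic ribosomal protein genes served as a broadly used group, and 47 of 54 had a promoter peak in all 5 libraries. The set reached the promoters of 8 of the 54 and the bodies of 8. Rpl13 scored 10.4, 14.3 and 8.39 in the DA libraries, with 6.01 in 5-HT replicate 1, and Rpl9 scored 8.62, 9.70 and 9.05 with 4.86 in the same 5-HT library. Rps24, next by lowest DA score but not by percentile, had 6.59, 8.64 and 7.17 and a 5-HT score of 4.63. Even promoters of constantly used genes could thus lack a peak in 5-HT replicate 2. The reverse also occurred: a further ribosomal protein promoter region scored 3.06 in 5-HT replicate 2 and had no peak in replicate 1.

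The protein-coding model with the most regions of the set was Gm20388, with 50, but it spans 4435 kb and overlaps many other genes. After it came the teneurin gene Odz4, the phosphatase-like gene Ptprn2 and the nuclease gene Snd1, with 11 regions each. Pknox2, a TALE homeodomain gene, had 10 regions over 256 kb. The transcription factor gene Bach2, the engulfment gene Elmo1, the phosphodiesterase gene Pde4d and the zinc finger gene Zeb2 had 9 each. AF064781 had 8, a count shared by at least Slit3. Per length Zeb2 stood highest of these genes, with 6.73 regions per 100 kb, all held by 5-HT replicate 1, beside 4 DA regions without a 5-HT peak and 1 region in all 5 libraries in its body. Only 93 genes (0.416%) had at least 5 regions of the set in their body.

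The members with the highest rank in their lowest DA library were mostly distal. For 5-HT replicate 1, chr6:49186443-49186582 led, a region of 140 bp between genes, 21.6 kb from a TSS of Igf2bp3, with DA scores of 23.3, 31.3 and 24.8 and 11 in the 5-HT library. Its letters may resemble a ribosomal RNA gene, a repeated kind of sequence. In a search added after the data were seen, it matched 3 places on the assembled chromosomes, itself included. A match needed 90% identity or more over at least 90% of its length. No ribosomal reference was compared, so its scores may not describe a single locus. In an intron of the potassium channel gene Kcnj10, chr1:174285153-174286620 scored 15.1, 16.1 and 15.5 in the DA libraries, with 3.66 in 5-HT replicate 1. Its lowest DA percentile was 97.9 and its 5-HT percentile 20.4. The intergenic regions chr3:67671130-67672259, 24.4 kb from a TSS of Iqcj, and chr6:101019688-101020509, 129 kb from one of Pdzrn3, showed the same pattern, with 5-HT percentiles of 35.1 and 11.4. By contrast chr17:57475180-57475533, 22.8 kb from a TSS of Emr1, had a 5-HT percentile of 96.6 and yet no peak in 5-HT replicate 2.

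For 5-HT replicate 2 the leading region was chr9:110183756-110183871, the narrowest of the whole set at 116 bp, with DA scores of 17.5, 26.0 and 15.1 and 3.63 in that library. The same doubt holds for this region, whose letters may also resemble a ribosomal RNA gene, although it matched no place but itself. Next were chr15:12515850-12516193 in an intron of Pdzd2, with 18.9, 15.0 and 13.5 in the DA libraries, with 7.91 in 5-HT replicate 2, and chr6:127895884-127896074 in an intron of Tspan11, with 13.5, 17.3 and 13.6 and 7.11. Last came chr4:22964934-22965627, 550 kb from a TSS of Pou3f2, and chr5:17734999-17735575, 131 kb from one of Gnai1, with 5-HT scores of 3.70 and 3.88. Ranked instead by the score in the holding library, chr15:31245356-31245733 in an intron of Ankrd33b (14.2), chr9:83503333-83503825 in an intron of Sh3bgrl2 (13.5) and chr16:26234306-26234543 between genes (13.4) led for 5-HT replicate 1. For 5-HT replicate 2 these were chr6:128703586-128704565 between genes (8.68), the Pdzd2 region again, and chr6:55329743-55329983 in an intron of Ghrhr (7.64). A region could therefore rank above the 99th percentile in 5-HT replicate 1 and be absent from replicate 2.

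In regions outside promoters, each region was scored for short words, read on either strand, within the 200 bp at its centre. This window was the same for every region, so it covered a smaller part of wide regions, and the sets compared differ in width. The short part of the CTCF site, CCANNAGGG, occurred in 6.90% (6.41 to 7.42) of the 9552 such regions of the set, against 6.01% in the DA repertoire, 5.31% in all regions outside promoters and 2.96% in flanking windows 5 kb from members of the set. A longer core word, CCANNAGNNGGC, chosen after the data were seen, as were its splits below, occurred in 11.2% (10.6 to 11.9) of them, in 7.90% of the repertoire and in 5.44% of all regions outside promoters. It overlaps the shorter word, with which it shares its first letters. It was found in 10.4% (9.79 to 11.1) of regions held by 5-HT replicate 1 and in 17.0% (15.0 to 19.2) of those held by replicate 2. DA regions without a 5-HT peak had 6.64% and regions in all 5 libraries 6.77%, and the flanking windows 1.28%. A word match is a description of the sequence and not evidence of a bound factor.

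The core word went with narrow and strongly scored regions. Since the window was fixed at 200 bp, the fall with width cannot be told apart from the smaller part of a wide region that was searched. Among regions held by 5-HT replicate 1, it occurred in 35.1% of those at most 250 bp wide and in 1.36% of those over 1000 bp, and for replicate 2 in 40.3% and 1.73%. At the same narrow width it was found in 24.6% of DA regions without a 5-HT peak and in 35.7% of those in all 5 libraries. Over the 10 parts by lowest DA percentile it rose from 1.60% to 28.4% in regions held by replicate 1. The rise was not particular to the set: DA regions without a 5-HT peak went from 1.73% to 28.3%, and regions in all 5 libraries from 0.707% to 8.65%. Regions with the word had a median width of 373 bp and a median percentile of 65.5 in 5-HT replicate 1, and those without it 702.5 bp and 38.8. For replicate 2 these were 334 bp and 42.3 with the word, and 558.5 bp and 29.1 without it.

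AAAGGTCA, the NBRE bound by the Nr4a receptors, was found in 1.05% (0.862 to 1.27) of the set outside promoters, in 3.62% of DA regions without a 5-HT peak, in 0.622% of regions in all 5 libraries, in 2.02% of all regions outside promoters and in 0.970% of the flanking windows. TAATTA, the homeodomain core, was found in 6.33%, 9.0% and 4.02% of the first 3 of these groups, with 6.86% in all regions outside promoters. The E-box CAGATG was found in 18.7%, 23.2% and 14.4%, with 20.6% in all regions, and the E-box CAGCTG in 19.4%, 24.0% and 17.6%, with 19.4%. The forkhead word TGTTTAC followed the same order with 3.22%, 5.49% and 2.21% (4.04% in all regions), and the AP-1 word TGANTCA with 4.94%, 6.63% and 3.83% (6.46%). GGGCGGGG, bound by Sp and KLF factors, ran the other way with 2.85%, 1.09% and 6.24% (1.53%). The SOX words ACAAAG and ACAATG were found in 18.9% and 10.2% of the set. Regions held by 5-HT replicate 1 had 19.1% and 10.3%, and those held by replicate 2 had 17.4% and 9.12%. DA regions without a 5-HT peak had 17.4% and 9.68%, and regions in all 5 libraries 15.9% and 8.56%. All regions outside promoters had 18.3% and 11.1%, and the flanking windows 17.5% and 11.3%. AGATAAG of GATA factors was found in 2.08% of the set and 2.42% of all regions, the octamer ATTTGCAT in 1.68% and 1.85%, and the NFI word in 1.65% and 1.34%. The CRE word TGACGTCA and the NRF1 word GCGCATGCG were rare, at 0.283% and 0.168%, against 0.226% and 0.114% in all regions. Outside promoters the median GC content of the windows was 50.5%, against 47.5% without a 5-HT peak, 55.0% in all 5 libraries and 44.5% in the flanks.

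In the 1648 promoter regions the median GC content was 63.0% and the CpG observed-to-expected ratio 0.717, against 53.8% and 0.356 for promoter regions without a 5-HT peak and 66.0% and 0.849 for those in all 5 libraries. Promoter regions held by 5-HT replicate 1 had a ratio of 0.730 and those held by replicate 2 one of 0.463. GGGCGGGG was found in 17.5% of the promoter windows of the set, in 7.98% of those without a 5-HT peak in 20.5% of those in all 5 libraries and in 16.3% of all promoter regions. In CpG content the promoters held by 5-HT replicate 1 were thus nearer to those open in every library.

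The mm9 sequences of 4 named regions are given on the plus strand from 5′ to 3′. They were picked for their words and are not typical: of the 14 named regions with a sequence, 4 hold the core word or the NBRE word, and 3 of those are shown beside 1 with neither. Capitals mark exact matches of the CTCF core word CCANNAGNNGGC or the NBRE word AAAGGTCA on either strand. Stretches that come close to either word are not marked, so a sequence without the word can still hold a similar one. The Pdzd2 region is given as chr15:12515872-12516171 and the Tspan11 region as chr6:127895884-127896074, since both rank among the highest of replicate 2 and contain the core word. The intergenic region chr6:128703926-128704225 is the centre of the member with the highest score in replicate 2. The region chr16:26234306-26234543, strong in replicate 1, has neither word. In the same search for copies, chr6:128703926-128704225 matched 2 places and the other 3 sequences 1 each, themselves included.
Pdzd2 intron: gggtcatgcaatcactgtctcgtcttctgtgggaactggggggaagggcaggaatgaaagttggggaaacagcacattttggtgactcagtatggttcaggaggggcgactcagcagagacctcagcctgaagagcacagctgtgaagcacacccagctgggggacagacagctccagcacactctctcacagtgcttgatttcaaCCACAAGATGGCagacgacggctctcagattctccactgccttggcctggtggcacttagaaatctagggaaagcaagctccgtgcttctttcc
Tspan11 intron: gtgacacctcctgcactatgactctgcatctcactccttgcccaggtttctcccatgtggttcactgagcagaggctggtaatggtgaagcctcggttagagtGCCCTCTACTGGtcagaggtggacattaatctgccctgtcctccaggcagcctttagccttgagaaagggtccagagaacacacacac
Intergenic, chromosome 6, replicate 2: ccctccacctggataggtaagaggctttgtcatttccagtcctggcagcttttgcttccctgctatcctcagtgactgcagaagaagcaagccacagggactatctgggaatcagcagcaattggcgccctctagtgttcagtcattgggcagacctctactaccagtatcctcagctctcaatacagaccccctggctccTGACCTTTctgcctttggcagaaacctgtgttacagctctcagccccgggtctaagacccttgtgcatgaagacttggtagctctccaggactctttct
Intergenic, chromosome 16, replicate 1: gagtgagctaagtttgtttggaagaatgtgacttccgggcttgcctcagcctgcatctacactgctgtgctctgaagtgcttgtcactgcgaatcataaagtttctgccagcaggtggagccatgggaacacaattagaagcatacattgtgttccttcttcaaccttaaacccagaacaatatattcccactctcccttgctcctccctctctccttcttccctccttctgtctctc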

How the data were processed

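ATAC-seq of 3 DA and 2 5-HT libraries was analysed. The authors used Trimmomatic for trimming, Bowtie2 for alignment to mm9, Picard against duplicates and MACS2 for peaks, which BEDOPS joined into regions. The submitters' processing notes also name FastQC and HOMER; versions and the peak threshold are not given in the sources used here. The deposited score of each of 131942 regions is 0 without a peak, and its scale is not named. Regions were used as deposited, with 1 misspelled chromosome name read as the chromosome it stands for. Peaks were not called again, so differences in depth or in the authors' threshold between libraries act directly on presence. Positions were set against the GENCODE vM1 annotation of mm9 by region centre: promoter (1000 bp upstream to 100 bp downstream of a TSS), exon, intron, intergenic. Words were searched in 200 bp with pysam 0.24.0 and samtools 1.23.1; copies were sought with BLAST 2.17.0. Intervals of shares are 95% Wilson intervals. Analyses used Python 3.11.15, pandas 2.3.3, NumPy 2.4.6 and SciPy 1.17.1. The sorting of regions into sets, the search for the core word and the genomic classes were tested on simulated data, and the other steps were not.

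Named genes were those of the transmitter lists with a region at a promoter, up to 3 per other list by the lowest DA score, the 10 with most regions in the body, and the top regions by DA rank (5 per 5-HT library), 5-HT rank (3 each) and width (3). The last of the 10 by regions in the body was tied at 8. Regions in the bodies of Th, Ddc, Lmx1a, Lmx1b and Gli2 were named after their values were seen. Values of some genes that this rule or the marker list names are not reported here. Spi1 and Disp1 were not found in the annotation under these symbols. Members and lists were chosen with earlier results of these data known. Alternatives covered merging, overlap, numbers of peaks, a stricter threshold, DA replicates left out and promoter definitions.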

Additional observations from a re-analysis of the deposited data

How the results depend on the processing

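Merging regions under 100 bp apart gave 11218 regions, or 11194 with the stricter overlap, and shares and a width within the reported intervals. With each library limited to its 22879 highest-scoring peaks, 2923 regions met the rule (17.5% of the DA repertoire), 71.5% were held by 5-HT replicate 1, 13.6% were promoters, the median width was 503 bp, 531 genes had a promoter region and CCANNAGGG was found in 9.58%. With only 5-HT replicate 1 limited, the share of the repertoire was 18.7%, of replicate 1 58.0% and of promoters 17.4%. Without the lowest-scoring 25% of each library these shares were 25.4%, 89.0% and 20.2%, the median width 709 bp and the word share 7.55%. These 3 limits kept 22.4%, 56.3% and 60.4% of the reported regions. The broader promoter gave 23.1% and protein-coding transcripts only 12.9%. Leaving out each DA replicate in turn gave shares of the repertoire from 22.1% to 24.0%, of replicate 1 from 87.3% to 88.0%, of promoters from 12.8% to 14.7% and median widths from 620 to 668 bp; leaving out a 5-HT replicate gives no value, since exactly 1 of 2 is then undefined. No paired analysis was made: the DA and 5-HT libraries come from separate sorts of different mouse lines, and no test was run. The causes of these shifts were not tested, and depth is unknown because the peak lists hold no counts. Alternatives for gene counts and words were added after seeing the data.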
